A study of Mus musculus with 6 samples.

Results

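The niche signal genes described here are 9 genes for secreted proteins that set Wnt and BMP signalling around the colonic crypt: Wnt2b, Wnt5a, Rspo1, Rspo3, Sfrp1, Grem1, Bmp2, Bmp4 and Bmp7. They were chosen by name, with earlier results of these data known, and all 9 were found among the 55849 genes of the count table. By the protocols, RNA came from pieces of descending colon of Muc2-/- mice and of wild-type C57BL/6 mice. All were aged 12 weeks and untreated, with 3 libraries from each genotype. Muc2 encodes the gel-forming mucin of colonic mucus, and its loss leaves the mouse colon open to lasting inflammation. The labels describe neither the Muc2 allele nor the sex of the mice, and do not say whether each library is a separate animal, so p-values measure only the spread between these libraries, which may be technical.

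The crypt base holds the stem cells of the colonic epithelium, and mesenchymal cells beneath and around it supply much of the signal that keeps them dividing. Wnt ligands bind Frizzled and Lrp receptors on the epithelial cell, and R-spondins strengthen that signal by binding Lgr receptors and removing the ubiquitin ligases Znrf3 and Rnf43, which clear Frizzled from the cell surface. Secreted inhibitors such as Sfrp1 bind Wnt proteins outside the cell. BMP ligands act against stemness and are highest toward the gut surface, while antagonists such as Grem1, made by cells next to the muscle layer at the crypt base, hold BMP signalling low there.

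The sample titles name crypts, but the protocols describe colon tissue. Markers of muscle, enteric neurons, mesothelium and epithelium were counted in all 6 libraries, so the values are not those of crypts alone. They are read here as values of a piece of colon wall. Total counts ran from 16627761 to 17465636 in Muc2-/- libraries and from 16395432 to 20336459 in wild-type libraries. Muc2 itself stood at 757 to 1021 CPM (counts scaled to library size) in Muc2-/- and at 2480 to 6977 CPM in wild-type, with a fitted log2 difference of -2.15 (adjusted p = 0.103 in edgeR and 6.77e-05 in DESeq2), in a gene whose altered stretch is not named in the labels. Mitochondrially encoded genes took 1.04% to 3.50% of the counts in Muc2-/- and 3.49% to 8.98% in wild-type. Muc2-/- 2 stood apart in that share and in the rank correlation across genes between gene length and deviation from the mean library, which was -0.245 there, against -0.0126 and 0.0248 in the other Muc2-/- libraries and 0.0369 to 0.154 in wild-type.

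Sfrp1 and Rspo1 were the niche signal genes with the lowest fitted changes in Muc2-/- colon, 3.76-fold and 4.39-fold below wild-type, and Bmp7 had the highest, 2.14-fold above it. In these 3 genes every Muc2-/- library lay on one side of every wild-type library, while in Wnt2b, Wnt5a, Rspo3, Grem1, Bmp2 and Bmp4 the groups overlapped. All 9 genes had enough counts to be tested, and none passed an adjusted p of 0.05 in edgeR's quasi-likelihood test over 16107 genes, in which 0.106% of genes were called higher, 0.0186% lower and 0.124% in either direction. The counts without overlap, 2 lower and 1 higher of 9, stand beside 15.2% lower and 13.3% higher over all tested genes. At an unadjusted p under 0.05 the same test marked 2 of the 9 as lower and 1 as higher, against 12.7% lower, 8.23% higher and 21% in either direction over all genes. DESeq2 called Rspo1 and Sfrp1 lower and Bmp7 higher, against 7.41% of genes called lower and 4.09% higher. The median log2 fold change was -0.66 over the 9 genes and -0.01 over all tested genes, with 6 of the 9 negative. That median rested on wild-type 1: it was 0.0066 without this library, 0.079 without it and Muc2-/- 2 together, and -0.071 with Des as a covariate. In whole tissue, fewer cells of a type and less RNA per cell cannot be told apart.

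**Figure D1:**
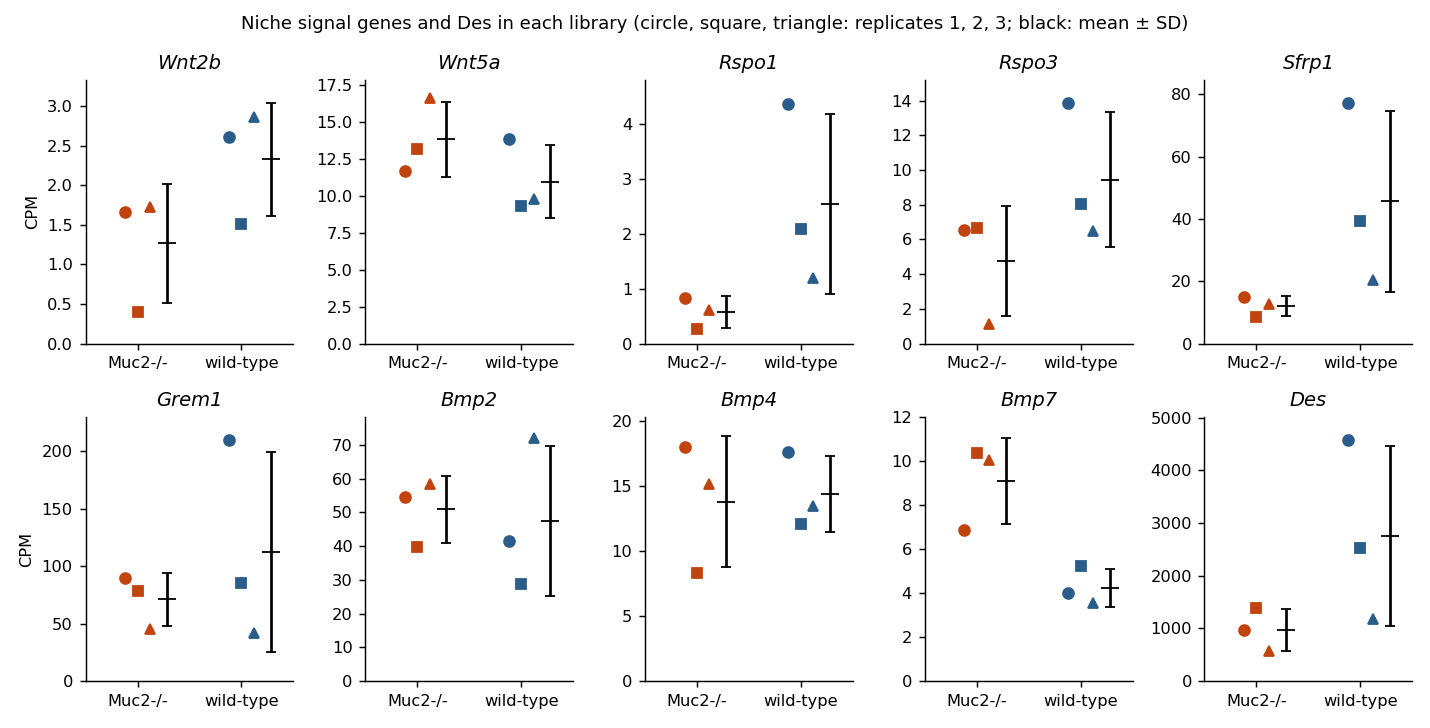
Levels of the 9 niche signal genes and of the muscle gene Des, in CPM on linear axes from 0, with 1 point for each library (circle, square and triangle for replicates 1, 2 and 3), Muc2-/- left of wild-type, and black bars for the mean ± SD. Sfrp1, Rspo1 and Bmp7 are the niche signal genes whose groups do not overlap, and wild-type 1 is the highest library for Sfrp1, Rspo1, Rspo3, Grem1 and Des.

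FPKM, in which counts are divided by gene length as well as library size, allow levels to be set side by side between genes. In Muc2-/- colon the order by mean FPKM was Grem1 (17.2 ± 5.58), Bmp2 (14.4 ± 2.65), Bmp4 (6.15 ± 2.17), Sfrp1 (2.78 ± 0.706), Bmp7 (2.28 ± 0.511), Wnt5a (1.78 ± 0.328), Rspo3 (1.56 ± 1.04), Wnt2b (0.301 ± 0.178) and Rspo1 (0.295 ± 0.146). In wild-type colon it was Grem1 (26.5 ± 20.1), Bmp2 (13.3 ± 6.58), Sfrp1 (10.2 ± 6.32), Bmp4 (6.32 ± 1.18), Rspo3 (3.01 ± 1.17), Wnt5a (1.39 ± 0.290), Rspo1 (1.29 ± 0.808), Bmp7 (1.04 ± 0.204) and Wnt2b (0.549 ± 0.175), each ± SD with n = 3. Neighbours in these orders mostly overlapped over libraries. In Muc2-/- the steps without overlap were those between Bmp2 and Bmp4 and between Bmp4 and Sfrp1, and in wild-type those between Bmp4 and Rspo3, Rspo3 and Wnt5a, and Bmp7 and Wnt2b.

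Wnt2b and Wnt5a are the mesenchymal Wnt ligands. Wnt2b, which signals through beta-catenin, lies on chromosome 3 from 104852588 to 104869237, minus strand, in the coordinates of the count table. It had 28, 6 and 28 counts in Muc2-/- 1, 2 and 3, or 1.67, 0.396 and 1.73 CPM, and 47, 29 and 60 counts in wild-type 1, 2 and 3, or 2.60, 1.51 and 2.86 CPM. Muc2-/- 2 was the lowest library, the other Muc2-/- libraries were above wild-type 2, and the groups overlapped. The log2 fold change was -0.87 (SE 0.62, edgeR adjusted p = 0.457), and it moved to -0.43 without Muc2-/- 2. Wnt5a, a ligand best known for signalling without beta-catenin and for its part in crypt regeneration after injury in mice, lies on chromosome 14 from 28226707 to 28249405, plus strand. It stood at 11.7, 13.2 and 16.6 CPM in Muc2-/- 1, 2 and 3 and at 13.8, 9.33 and 9.78 CPM in wild-type 1, 2 and 3. Muc2-/- 3 was the highest and wild-type 1 lay above both other Muc2-/- libraries, with a log2 fold change of 0.33 (SE 0.27, edgeR adjusted p = 0.515).

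Rspo1 and Rspo3 are the R-spondins counted well enough to be tested. Rspo1 lies on chromosome 4 from 124880223 to 124902892, plus strand, and had 14, 4 and 10 counts in Muc2-/- 1, 2 and 3, against 79, 40 and 25 counts in wild-type 1, 2 and 3. These are 0.834, 0.264 and 0.618 CPM in Muc2-/- and 4.38, 2.08 and 1.19 CPM in wild-type. The highest Muc2-/- library lay below the lowest wild-type library, and the wild-type libraries themselves spread widely. The 4 counts of Muc2-/- 2 have an exact 95% Poisson interval of 1.09 to 10.2 counts, which covers counting error only. The log2 fold change was -2.13 (SE 0.68), with an unadjusted p of 0.0142 and an adjusted p of 0.141 in edgeR, and DESeq2 gave an adjusted p of 0.0376. It was -1.77 without Muc2-/- 2 and -1.17 without that library and wild-type 1 together.

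Rspo3, the R-spondin that stromal cells at the crypt base of the mouse colon are known to make, lies on chromosome 10 from 29328412 to 29411863, minus strand. It had 6.55, 6.67 and 1.11 CPM in Muc2-/- 1, 2 and 3 and 13.8, 8.03 and 6.48 CPM in wild-type 1, 2 and 3. Muc2-/- 3, with 18 counts (exact 95% Poisson interval 10.7 to 28.4), was far below the other 5 libraries, and Muc2-/- 1 and 2 were level with wild-type 3. The log2 fold change of -0.98 (SE 0.63, edgeR adjusted p = 0.409) moved to -0.49 without Muc2-/- 3. Rspo2, another R-spondin, had too few counts to be tested, with 0.417, 0.198 and 0.309 CPM in Muc2-/- 1, 2 and 3 and 2.05, 2.19 and 0.429 CPM in wild-type 1, 2 and 3, and Rspo4 was at 0 in all 6 libraries.

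The promoters of Rspo1 and Grem1 are shown beside that of Des because, within the wild-type group, both genes kept the order of Des over libraries, as described further on. The RefSeq promoter table for GRCm38.p6 held 4 of the 9 genes (Wnt2b, Rspo1, Grem1 and Bmp4). Each sequence is the 250 bases before the annotated start, written 5′ to 3′ on the gene's strand. Capitals mark GGCGCC, a letter pattern that reads the same on both strands and was chosen after the sequences had been seen. Rspo1 is chr4:124986180-124986429 on the plus strand, Grem1 is chr2:113758649-113758898 on the minus strand, and Des is chr1:75360042-75360291 on the plus strand.
Rspo1: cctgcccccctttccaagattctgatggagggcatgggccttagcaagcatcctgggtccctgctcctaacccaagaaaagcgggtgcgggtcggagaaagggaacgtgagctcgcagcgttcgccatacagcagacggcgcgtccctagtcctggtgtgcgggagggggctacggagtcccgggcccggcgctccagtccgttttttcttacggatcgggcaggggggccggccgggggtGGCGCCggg
Grem1: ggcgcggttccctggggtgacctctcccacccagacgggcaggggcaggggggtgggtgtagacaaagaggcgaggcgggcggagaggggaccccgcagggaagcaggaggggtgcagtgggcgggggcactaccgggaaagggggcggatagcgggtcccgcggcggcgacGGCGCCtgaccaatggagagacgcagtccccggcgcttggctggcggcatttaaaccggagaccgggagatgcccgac
Des: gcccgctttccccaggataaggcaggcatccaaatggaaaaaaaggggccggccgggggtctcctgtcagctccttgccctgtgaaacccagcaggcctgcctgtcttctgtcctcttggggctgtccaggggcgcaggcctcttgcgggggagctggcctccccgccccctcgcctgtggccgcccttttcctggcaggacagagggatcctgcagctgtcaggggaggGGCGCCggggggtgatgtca
The first base of the pattern lay 9 bases before the start in Rspo1, 78 in Grem1 and 20 in Des. It occurred in 3 of the 4 niche gene promoters of the table, all except Bmp4, and in 9.59% of 32851 promoter windows of the same length. The 3 windows shown are rich in G and C, at 66.8% for Rspo1, 72.0% for Grem1 and 67.2% for Des, against a median of 52.4% over all windows. A match of letters is a description and not a binding site.

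Sfrp1, the secreted Wnt inhibitor among the 9 genes, lies on chromosome 8 from 23901518 to 23939648, plus strand, and had 250, 130 and 208 counts in Muc2-/- 1, 2 and 3, against 1394, 757 and 425 counts in wild-type 1, 2 and 3. These are 14.9, 8.59 and 12.9 CPM in Muc2-/- and 77.2, 39.5 and 20.3 CPM in wild-type. Every Muc2-/- library was below every wild-type library, and the wild-type libraries ran from wild-type 1 down to wild-type 3 over a wider range than the gap between the groups. The log2 fold change was -1.91 (SE 0.47), with an unadjusted p of 0.00380 and an adjusted p of 0.103 in edgeR. With DESeq2 the adjusted p was 0.00250, and in edgeR without wild-type 3 it was 0.0194. Its log2 fold change was -1.68 without Muc2-/- 2 and -1.11 without that library and wild-type 1 together (edgeR adjusted p = 0.181 and 0.227).

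Grem1, the BMP antagonist of the crypt base, lies on chromosome 2 from 113576509 to 113588991, minus strand. It stood at 89.8, 78.5 and 45.2 CPM in Muc2-/- 1, 2 and 3 and at 210, 85.6 and 42.1 CPM in wild-type 1, 2 and 3. Wild-type 1 was more than all others, while wild-type 3 was the lowest of the 6, below every Muc2-/- library. Its log2 fold change of -0.66 (SE 0.54, edgeR adjusted p = 0.521) turned to 0.16 without wild-type 1.

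Bmp2, Bmp4 and Bmp7 are the BMP ligands of the group. Bmp7 lies on chromosome 2 from 172709805 to 172782114, minus strand, and had 115, 157 and 163 counts in Muc2-/- 1, 2 and 3 and 72, 100 and 74 counts in wild-type 1, 2 and 3. These are 6.85, 10.4 and 10.1 CPM in Muc2-/- and 3.99, 5.21 and 3.53 CPM in wild-type. The lowest Muc2-/- library was above the highest wild-type library, and neither group held a library far from its others. The log2 fold change was 1.10 (SE 0.32), with an unadjusted p of 0.00963 and an adjusted p of 0.123 in edgeR, and DESeq2 gave an adjusted p of 0.0150. It was 1.02 without Muc2-/- 2 and 0.95 without that library and wild-type 1 together.

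Bmp2, which the colonic epithelium also makes, lies on chromosome 2 from 133394079 to 133404805, plus strand, and had 54.7, 39.7 and 58.3 CPM in Muc2-/- 1, 2 and 3 and 41.5, 28.7 and 72.2 CPM in wild-type 1, 2 and 3. The wild-type libraries included both the highest and the lowest of the 6. Its log2 fold change was 0.10 (SE 0.34, edgeR adjusted p = 0.893) and turned to -0.16 without wild-type 2. Bmp4, known as a mesenchymal BMP of the gut, lies on chromosome 14 from 46620977 to 46628126, minus strand, and had 18.0, 8.26 and 15.1 CPM in Muc2-/- 1, 2 and 3 and 17.6, 12.0 and 13.4 CPM in wild-type 1, 2 and 3. Muc2-/- 1 and 2 were the highest and the lowest of the 6 libraries, with a log2 fold change of -0.06 (SE 0.33, edgeR adjusted p = 0.941) that turned to 0.23 without Muc2-/- 2. Over the 6 libraries 99 counts were assigned to Gm15222 and 25 to Gm15217, genes annotated on the opposite strand over Bmp4, against 1503 for Bmp4, and without a stated strand setting reads of overlapping genes cannot be told apart.

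**Figure D2:**
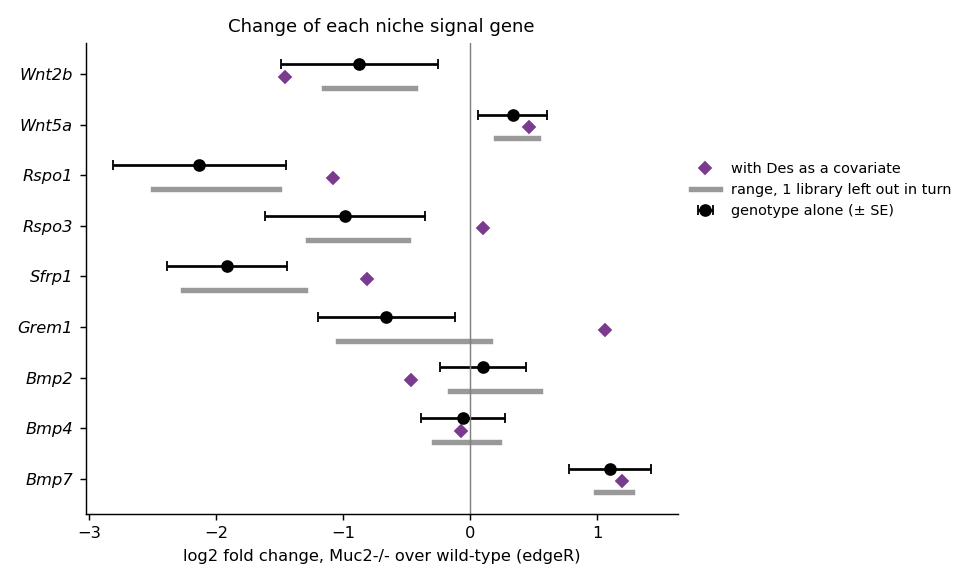
Log2 fold change of each niche signal gene, Muc2-/- over wild-type, from edgeR: black points with bars of 1 SE for genotype alone, grey bars for the range with 1 library left out in turn, purple diamonds with Des as a covariate. Rspo1 and Sfrp1 lie farthest below 0, at -2.13 and -1.91, and Bmp7 farthest above it, at 1.10, and the diamond of Grem1 lies on the other side of 0 from its point.

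Signals and their antagonists were also set against each other within each library, in combinations chosen after the values had been seen and therefore given without a test. The FPKM of Sfrp1 divided by the summed FPKM of Wnt2b and Wnt5a was 1.80, 1.10 and 1.16 in Muc2-/- 1, 2 and 3 and 7.39, 5.81 and 2.40 in wild-type 1, 2 and 3, so that every Muc2-/- library had less of the inhibitor per ligand than every wild-type library. Rspo1 and Rspo3 together came to 2.53, 2.34 and 0.681 FPKM in Muc2-/- and to 6.54, 3.61 and 2.76 FPKM in wild-type, again without overlap, although Muc2-/- 1 and wild-type 3 were close. The ratio of Grem1 to the summed BMP ligands was 0.864, 1.09 and 0.425 in Muc2-/- and 2.47, 1.40 and 0.373 in wild-type, and here the groups overlapped. Bmp7 made up 6.79%, 14.8% and 9.77% of the summed FPKM of Bmp2, Bmp4 and Bmp7 in Muc2-/- and 4.84%, 8.81% and 3.23% in wild-type, with overlap. The summed BMP ligands, at 17.8 to 25.7 FPKM in Muc2-/- and 14.5 to 27.6 FPKM in wild-type, covered much the same range.

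Des encodes desmin, the intermediate filament of muscle cells, and served as the marker of the muscle layer. It had 959, 1380 and 573 CPM in Muc2-/- 1, 2 and 3 and 4576, 2529 and 1179 CPM in wild-type 1, 2 and 3, so that Muc2-/- 2 lay above wild-type 3 and the groups overlapped. Its log2 fold change was -1.51 (SE 0.54, edgeR adjusted p = 0.172; DESeq2 adjusted p = 0.0321). In wild-type the order of Des was 1, 2, 3 from high to low, and all 12 other smooth muscle markers kept it. In Muc2-/- it was 2, 1, 3, and 5 of the 12 kept it, while Myh11, the smooth muscle myosin heavy chain, ran 795, 231 and 448 CPM in Muc2-/- 1, 2 and 3.

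Rspo3 had the same order as Des in both groups, an order shared by 6.41% of the other tested genes. Rspo1, Sfrp1 and Grem1 kept the order of Des in wild-type, as 30.8% of the other tested genes did, but not in Muc2-/-, where Muc2-/- 1 was the highest for all 3 genes. In Muc2-/- Rspo1 and Sfrp1 were lowest in Muc2-/- 2, the library with the most Des. Their order there, 1, 3, 2, was that of Myh11 and of no other smooth muscle marker. Grem1 ran 1, 2, 3 in Muc2-/-, as did 6 of the 12 other smooth muscle markers. Bmp7 had Muc2-/- 2 and wild-type 2 highest. Wnt2b and Bmp2 were highest in replicate 3 of each group, the library with the least Des, Bmp4 was highest in replicate 1 and lowest in replicate 2 of each group, and Wnt5a was highest in Muc2-/- 3 and wild-type 1.

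**Figure D3:**
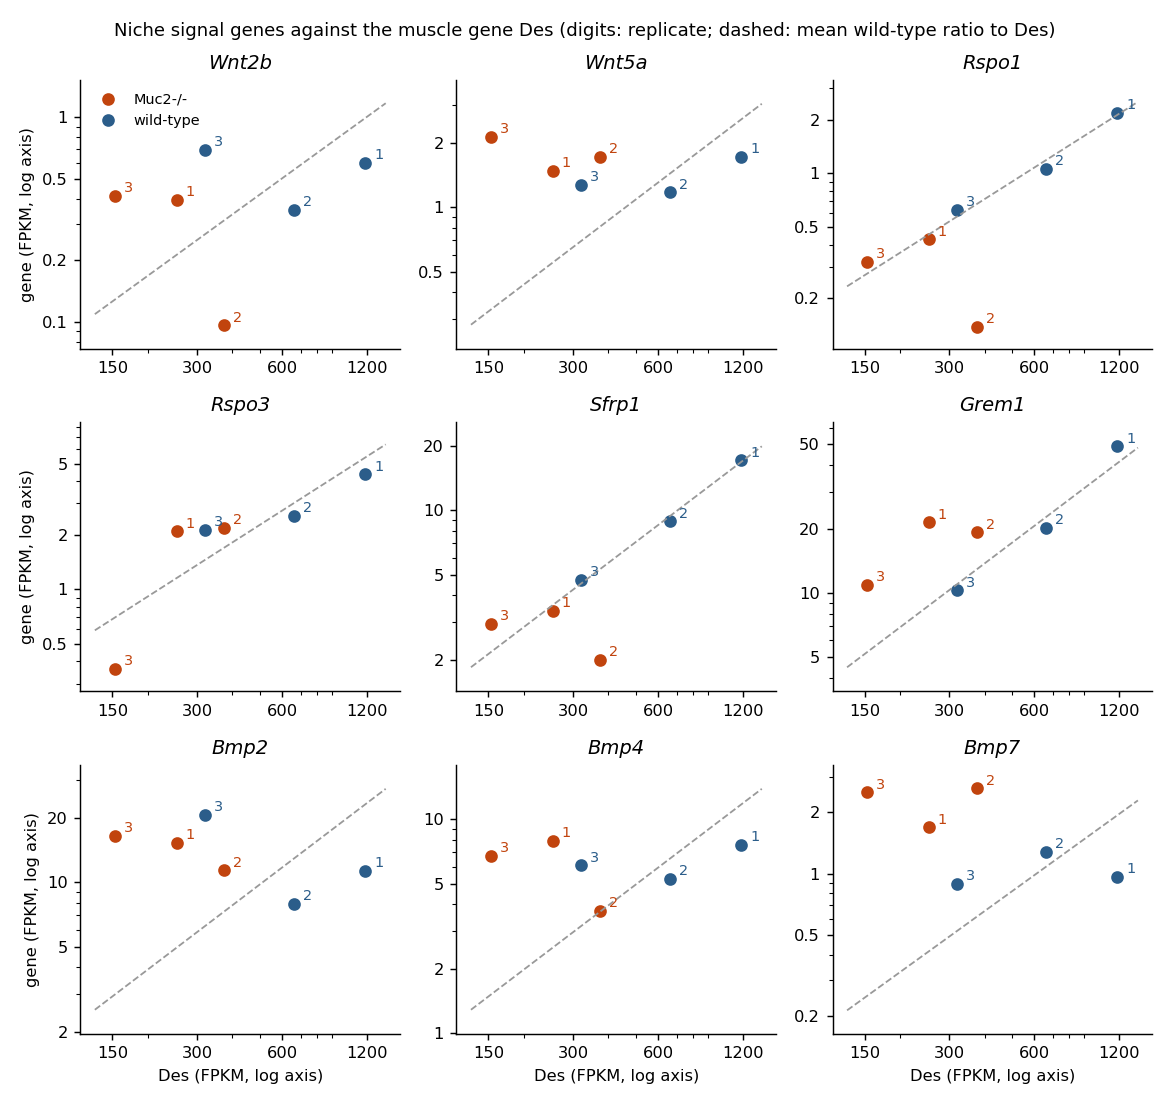
Level of each niche signal gene (vertical) against Des (horizontal), both in FPKM on log axes, with 1 numbered point for each library (orange Muc2-/-, blue wild-type) and a dashed line at the mean wild-type ratio to Des. The wild-type points of Sfrp1 and Rspo1 lie along the line with Muc2-/- 2 below it, and all Muc2-/- points of Grem1, Bmp7, Wnt5a, Bmp2 and Bmp4 lie above it, those of Bmp2 and Bmp4 overlapping wild-type in their ratio to Des.

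Divided by Des, in FPKM per 1000 FPKM of Des, Sfrp1 was 13.3, 5.35 and 19.3 in Muc2-/- 1, 2 and 3 and 14.5, 13.4 and 14.8 in wild-type 1, 2 and 3. The wild-type libraries, which spread over a wide range of Sfrp1 itself, were nearly level on this scale. Their SD of the log2 ratio was 0.07, and 0.676% of 15687 genes had one as small or smaller. In Muc2-/- the SD was 0.95, and 72.2% of the genes had one as small or smaller. The groups overlapped, with a log2 difference of -0.35 (exact two-sided permutation p = 0.7). Rspo1 per Des was 1.68, 0.371 and 2.09 in Muc2-/- and 1.85, 1.60 and 1.96 in wild-type, with a log2 difference of -0.72 (exact two-sided permutation p = 0.7). For both genes Muc2-/- 2 was the lowest and Muc2-/- 3 the highest of the 6 libraries on this scale.

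Grem1 per Des was 84.8, 51.5 and 71.4 in Muc2-/- 1, 2 and 3 and 41.5, 30.6 and 32.3 in wild-type 1, 2 and 3, higher in every Muc2-/- library, with a log2 difference of 0.98. Bmp7 per Des was 6.67, 7.02 and 16.4 in Muc2-/- and 0.814, 1.93 and 2.80 in wild-type, with a log2 difference of 2.49, and Wnt5a per Des was 5.84, 4.60 and 13.9 in Muc2-/- and 1.45, 1.77 and 3.98 in wild-type, with a log2 difference of 1.73. These 3 genes were the ones whose ratio did not overlap between the groups, each with an exact two-sided permutation p of 0.1. That is the smallest that 3 against 3 allows, so no single ratio could pass 0.05. The share of all genes without overlap on this scale is not given here. Des itself was lower in Muc2-/- (log2 fold change -1.51), so a gene of unchanged level has a higher ratio there. Without division by Des, the log2 fold changes were -0.66 for Grem1, 1.10 for Bmp7 and 0.33 for Wnt5a. Rspo3 per Des was 8.30, 5.88 and 2.36 in Muc2-/- and 3.68, 3.86 and 6.68 in wild-type, a log2 difference of 0.09. Wnt2b, Bmp2 and Bmp4 also overlapped, with log2 differences of 0.29, 1.58 and 1.28 and exact two-sided permutation p-values of 0.9, 0.3 and 0.2. All 9 genes were compared in this way, and the permutation p-values printed are unadjusted.

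Against the mean of the collagen genes, which are made by fibroblasts, the log2 differences were -1.33 for Sfrp1, -1.69 for Rspo1 and 1.51 for Bmp7. Each was without overlap between the groups (exact two-sided permutation p = 0.1, the smallest possible, and 0.3 after Benjamini-Hochberg adjustment). The difference for Grem1 was near 0. The share of all genes without overlap on the collagen scale is not given here either. With Des as a covariate in edgeR, a fit in which Des also carries part of the genotype difference, the log2 fold change was -0.81 for Sfrp1 (adjusted p = 0.642), -1.08 for Rspo1 (adjusted p = 0.679), 1.20 for Bmp7 (adjusted p = 0.613), 1.06 for Grem1 (adjusted p = 0.613) and 0.10 for Rspo3 (adjusted p = 0.953). In that fit no gene of the table was called, and 1185 genes had an unadjusted p under 0.05. The value for Bmp7 was close to that without the covariate, those for Sfrp1 and Rspo1 moved toward 0, that for Wnt2b moved away from it, to -1.46, and those for Grem1, Rspo3 and Bmp2 turned their sign.

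The closest levels of Des were those of Muc2-/- 1 and 2, at 959 and 1380 CPM, and of wild-type 3, at 1179 CPM. There Sfrp1 was 14.9 and 8.59 CPM in Muc2-/- against 20.3 CPM in wild-type 3, and Rspo1 was 0.834 and 0.264 CPM in Muc2-/- against 1.19 CPM in wild-type 3. Grem1 was 89.8 and 78.5 CPM in Muc2-/- against 42.1 CPM in wild-type 3, and Bmp7 was 6.85 and 10.4 CPM in Muc2-/- against 3.53 CPM in wild-type 3. Rspo3, at 6.55 and 6.67 CPM in Muc2-/- and 6.48 CPM in wild-type 3, was level. These are 3 libraries picked for their Des, given as values with no test.

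Markers of other cells of the gut wall were summed in the same libraries. The 13 smooth muscle markers summed to 3191 to 5998 CPM in Muc2-/- and 7552 to 26846 CPM in wild-type, with all 13 fold changes negative and a median log2 fold change of -1.70. The 16 fibroblast markers summed to 847 to 1188 CPM in Muc2-/- and 1079 to 1995 CPM in wild-type, and the groups overlapped, Muc2-/- 1 lying above wild-type 3. Of the 16, 12 had a negative fold change, with a median of -0.62 that moved to -0.24 without wild-type 1, -0.33 without Muc2-/- 2, -0.029 without both and -0.053 with Des as a covariate. The 9 enteric neuron and glia markers summed to 43.5 to 64.2 CPM in Muc2-/- and 68.4 to 281 CPM in wild-type, and the 4 mesothelial markers to 2.11 to 8.40 CPM in Muc2-/- and 9.92 to 44.9 CPM in wild-type. The 10 endothelial markers summed to 99.2 to 116 CPM in Muc2-/- and 125 to 213 CPM in wild-type, while the 2 pacemaker cell markers (115 to 239 CPM in Muc2-/- and 168 to 253 CPM in wild-type) and the 7 immune markers (30.6 to 83.3 CPM in Muc2-/- and 16.8 to 115 CPM in wild-type) overlapped between the groups. The 8 epithelial markers summed to 23741 to 39736 CPM in Muc2-/- and 10645 to 19439 CPM in wild-type, with all 8 fold changes positive and a median of 0.83 (0.44 without wild-type 1 and Muc2-/- 2 together). DESeq2 called 11 of 13 muscle, 4 of 16 fibroblast, 7 of 9 neuron and glia, 1 of 10 endothelial and 2 of 3 tested mesothelial markers lower against 7.41% of all genes, and 2 of 8 epithelial markers higher, against 4.09%, and edgeR called none of them. The part of these shifts in the values of the niche signal genes was not tested beyond the comparisons with Des and collagen above.

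By gene, the epithelial keratins Krt8 and Krt19 had log2 fold changes of 0.93 and 1.26 (edgeR adjusted p = 0.271 and 0.212), and the neuronal genes Uchl1 and Tubb3 had -1.76 and -2.15 (edgeR adjusted p = 0.130 and 0.103). The mesothelial genes Msln and Upk3b had -1.89 and -2.79 (edgeR adjusted p = 0.116 and 0.162). The endothelial genes Plvap, of blood vessel diaphragms, and Ccl21a, a lymphatic chemokine, differed in sign, at 0.50 and -1.26 (edgeR adjusted p = 0.261 and 0.177). Ano1 and Kit, of the pacemaker cells, had 0.04 and -0.82 (edgeR adjusted p = 0.967 and 0.171), and the leukocyte gene Ptprc and the B cell gene Cd79a had 0.45 and -0.46 (edgeR adjusted p = 0.688 and 0.857).

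Among the fibroblast markers, the genes called by DESeq2 were Dcn, Lum, Dpt and Ackr4, the last a chemokine scavenging receptor that marks the Grem1-rich cells beneath the crypts in mice. Ackr4 stood at 5.72, 5.55 and 3.96 CPM in Muc2-/- 1, 2 and 3 and at 36.6, 21.8 and 11.3 CPM in wild-type 1, 2 and 3, with no overlap and a log2 fold change of -2.19 (SE 0.43, edgeR adjusted p = 0.101, DESeq2 adjusted p = 0.000147). Foxl1 and Pdgfra mark the telocytes and other fibroblasts that lie along the epithelium. Foxl1 had 1.49, 2.64 and 3.34 CPM in Muc2-/- and 0.388, 1.04 and 1.62 CPM in wild-type (log2 fold change 1.28, adjusted p = 0.281 in edgeR), and Pdgfra had 30.4, 43.9 and 39.4 CPM in Muc2-/- and 54.7, 31.6 and 24.1 CPM in wild-type (0.04, edgeR adjusted p = 0.955). Both overlapped between the groups. The collagen genes Col3a1 and Col1a2, the fibroblast markers with the highest counts, had log2 fold changes of -0.23 and -0.17 (edgeR adjusted p = 0.663 and 0.781). Ackr4, Foxl1 and Pdgfra were singled out after their values had been seen.

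**Figure D4:**
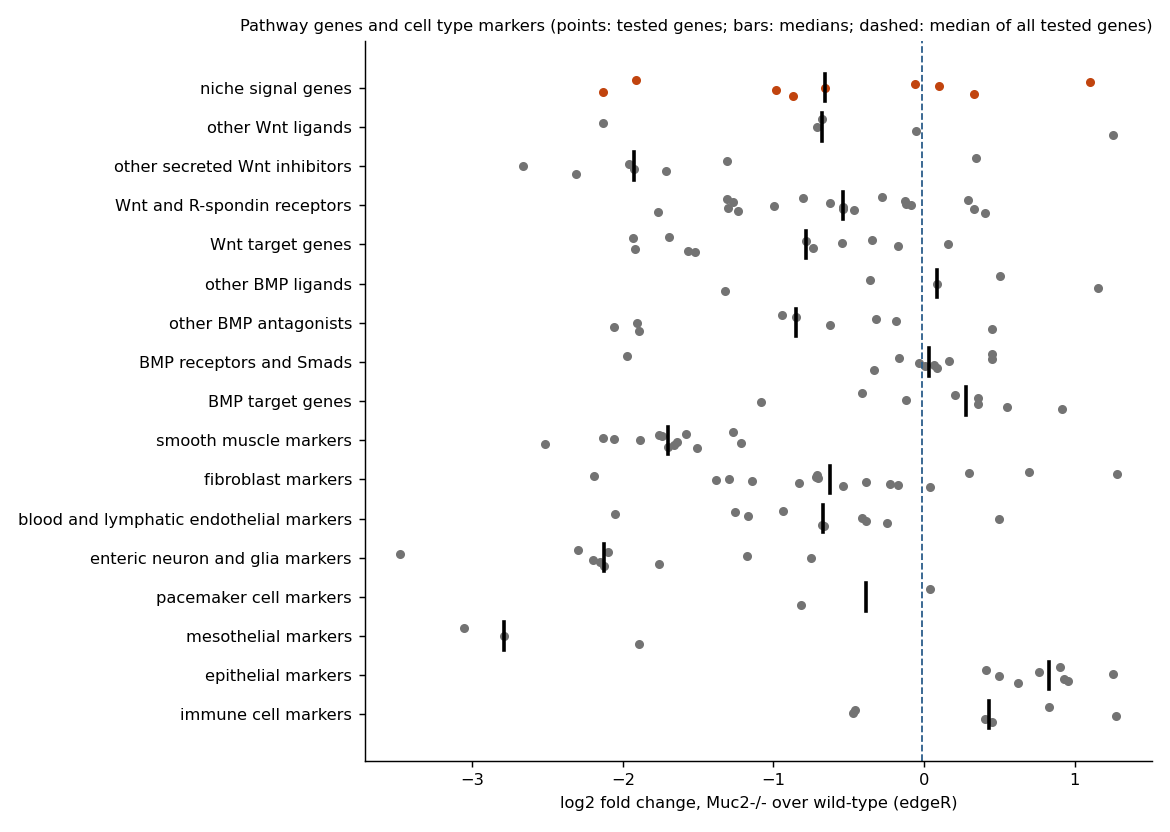
Log2 fold changes, Muc2-/- over wild-type, of the tested genes of each Wnt, BMP and cell marker list, with 1 point for each gene (orange for the niche signal genes), the list median as a bar and the median of all tested genes as a dashed line. The medians of the Wnt inhibitors (-1.93) and the smooth muscle markers (-1.70) lie far below the -0.01 of all tested genes, and that of the epithelial markers (0.83) above it.

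Of 10 other secreted Wnt inhibitors, 7 were tested, 6 had a negative fold change, and the median log2 fold change was -1.93, moving to -1.23 without wild-type 1 and Muc2-/- 2 together and to -0.72 with Des as a covariate. EdgeR called none, 4 were lower at an unadjusted p under 0.05 (12.7% of all genes), and DESeq2 called Dkk3, Frzb and Sfrp5 lower (7.41% of all genes). In Sfrp4, Dkk2 and Wif1 the groups overlapped, and Wif1 had a positive log2 fold change of 0.34. Dkk3, a secreted Dickkopf family protein, had 35.2, 24.3 and 25.7 CPM in Muc2-/- 1, 2 and 3 and 117, 58.5 and 35.6 CPM in wild-type 1, 2 and 3 (log2 fold change -1.31, SE 0.41, edgeR adjusted p = 0.138). Frzb, a Frizzled-related protein that binds Wnt ligands, had 4.58, 4.10 and 3.83 CPM in Muc2-/- and 53.0, 18.6 and 7.68 CPM in wild-type (-2.66, SE 0.64, edgeR adjusted p = 0.103). Both went from wild-type 1 down to wild-type 3, the order of Des and of Sfrp1. The list summed to 32.2 to 47.7 CPM in Muc2-/- and to 56.9 to 198 CPM in wild-type.

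Of 17 other Wnt ligands, 5 had enough counts to be tested and edgeR called none. Wnt4 had 5.12, 9.18 and 6.37 CPM in Muc2-/- and 1.94, 2.29 and 4.39 CPM in wild-type, without overlap (log2 fold change 1.26, SE 0.44, edgeR adjusted p = 0.166). Wnt5b had a log2 fold change of -0.05 (edgeR adjusted p = 0.960). Wnt9a was named because it was the one ligand of the list that DESeq2 called, as lower (7.41% of all genes). It had 0.714, 0.198 and 0.185 CPM in Muc2-/- and 1.99, 1.25 and 1.67 CPM in wild-type (log2 fold change -2.13, DESeq2 adjusted p = 0.0496).

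On the receiving side, 18 of 20 Wnt and R-spondin receptor and regulator genes were tested, 15 had a negative fold change and the median was -0.54, or -0.27 without Muc2-/- 2 and -0.26 without it and wild-type 1. The R-spondin receptor Lgr4 had 163, 158 and 160 CPM in Muc2-/- and 107, 120 and 165 CPM in wild-type (log2 fold change 0.29, adjusted p = 0.466 in edgeR), and the Wnt co-receptor Lrp6 had a log2 fold change of -0.12 (edgeR adjusted p = 0.771). DESeq2 called Fzd2, Fzd7 and Lgr5 lower, beside 7.41% of all genes. EdgeR called none, with 4 of the 18 lower at an unadjusted p under 0.05 (12.7% of all genes). Lgr5, the R-spondin receptor that marks crypt base stem cells, had 2.74, 2.05 and 2.53 CPM in Muc2-/- and 8.47, 5.42 and 4.29 CPM in wild-type (-1.31, SE 0.39, DESeq2 adjusted p = 0.0205).

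Of 13 Wnt target genes, 11 were tested, 10 had a negative fold change and 8 were lower without overlap (15.2% of all genes). The median was -0.78, or -1.22 without Muc2-/- 1, -0.60 without wild-type 1 and -0.62 without Muc2-/- 2. It was -0.53 without wild-type 1 and Muc2-/- 2 together. EdgeR called none, 7 were lower at an unadjusted p under 0.05 (12.7% of all genes), and DESeq2 called Axin2, Ascl2, Nkd1, Ephb3 and Prox1 lower (7.41% of all genes). Ephb2, a receptor that positions cells along the crypt, had 46.9, 40.2 and 48.4 CPM in Muc2-/- and 74.2, 63.2 and 60.3 CPM in wild-type (log2 fold change -0.54, SE 0.17, edgeR adjusted p = 0.141), and Sox9 had a log2 fold change of -0.35 (edgeR adjusted p = 0.331). Axin2, a feedback inhibitor widely used as a readout of Wnt signalling, had 10.7, 7.53 and 13.2 CPM in Muc2-/- and 35.4, 28.8 and 26.1 CPM in wild-type (-1.52, SE 0.27, edgeR adjusted p = 0.0886, DESeq2 adjusted p = 4.07e-05). Ascl2, a transcription factor of crypt base stem cells, had 3.63, 3.17 and 4.70 CPM in Muc2-/- and 9.47, 12.2 and 12.5 CPM in wild-type (-1.57, SE 0.30, edgeR adjusted p = 0.0962). In wild-type, Axin2 kept the order of Des, 1, 2, 3, and Ascl2 did not. Lgr5, Axin2 and Ascl2 were singled out after their values had been seen.

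All 9 other BMP antagonists were tested, 8 had a negative fold change and the median was -0.85, moving to -0.49 without wild-type 1, -0.29 without it and Muc2-/- 2, and 0.0038 with Des as a covariate. EdgeR called none, 4 were lower at an unadjusted p under 0.05, where 12.7% of all genes were, and those DESeq2 called lower (7.41% of all genes) included Nog and Chrdl1, named after their values had been seen. Fstl1 and Twsg1, the antagonists with the highest counts, had log2 fold changes of -0.94 and -0.32 (edgeR adjusted p = 0.217 and 0.433). Chrdl1, a chordin-like protein that binds BMP ligands, had 9.59, 5.95 and 1.85 CPM in Muc2-/- 1, 2 and 3, against 40.6 CPM in wild-type 1 and 15.97 CPM in the lower of the other wild-type libraries (-2.06, SE 0.62, edgeR adjusted p = 0.125, DESeq2 adjusted p = 0.0114). Its groups did not overlap, where those of Grem1 did.

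Of 10 other BMP ligands, 5 were tested, with a median log2 fold change of 0.09. The median ran from -0.48 to 0.18 when 1 library was left out, and was negative without Muc2-/- 1, 2 or 3 or wild-type 3. The filter was rerun in those fits, so the tested genes of a list could change. The sign of the median is therefore not laid to the omitted library. Bmp3, a ligand that opposes other BMPs, had 24.7, 21.1 and 16.6 CPM in Muc2-/- and 60.5, 51.9 and 43.8 CPM in wild-type (log2 fold change -1.32, SE 0.22, edgeR adjusted p = 0.0830, DESeq2 adjusted p = 3.95e-05), and Bmp8b had a log2 fold change of 0.50 (edgeR adjusted p = 0.539). Of 11 BMP receptor and Smad genes, 10 were tested with a median of 0.035 (-0.075 without Muc2-/- 1 and -0.023 without Muc2-/- 3), and the signal mediator Smad4 (log2 fold change 0.45) and the receptor Bmpr1a (-0.33) did not pass in edgeR (adjusted p = 0.257 and 0.339). The 8 BMP target genes had a median of 0.28, with 5 positive and 3 negative, which moved to 0.062 without Muc2-/- 2, 0.19 without wild-type 1 and -0.023 without both. Neither edgeR nor DESeq2 called any, though at an unadjusted p under 0.05 in edgeR 2 were higher and 1 lower, against 8.23% and 12.7% of all genes. Id1, an inhibitor of differentiation and a direct BMP target, had 366, 767 and 466 CPM in Muc2-/- and 212, 356 and 278 CPM in wild-type, without overlap (0.92, SE 0.33, edgeR adjusted p = 0.178). Id3 had a log2 fold change of 0.36 (edgeR adjusted p = 0.571).

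Each niche signal gene was set beside the protein-coding genes whose log2 CPM was most like its own over the 6 libraries, among 10909 genes at a mean of at least 5 CPM. The nearest for Sfrp1 were Tpst1, Selenon and Mturn, with Pearson's r of 0.999 for each, and for Rspo1 they were Aebp1, Ephx1 and P2rx2, at 0.999, 0.999 and 0.997. The nearest for Bmp7 was Itgb6, the integrin beta 6 subunit of epithelial cells, at 0.998, with 57.9, 110 and 94.0 CPM in Muc2-/- and 25.8, 35.7 and 21.5 CPM in wild-type. For Grem1 it was 5031439G07Rik at 0.986, for Wnt5a Gbp5, an interferon-induced GTPase, at 0.992, and for Rspo3 Sec62 at 0.998. For Wnt2b it was Bsn at 0.996, for Bmp2 Tubg1 at 0.986 and for Bmp4 Foxo1 at 0.991. These are the highest of very many values over 6 points that share libraries and groups, and serve as a description.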

How the data were processed

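Polyadenylated RNA of 6 libraries, 3 per genotype, was sequenced as paired-end Illumina reads, per the labels' protocols. The authors deposited raw counts per gene and FPKM. The submitters' processing notes name, with no order given, the build mm10 and these programs: featureCounts 1.5.0-p3, HISAT2 2.0.5, DESeq2 1.20.0 and StringTie 1.3.3b. Each deposited FPKM value was reached by dividing the count by gene length and by a scaled library total, with scaling of 0.860 to 1.14. Of 52081 gene identifiers shared with the GENCODE M21 annotation of that build, 51497 had the same width but 1494 the same start and end, and none of the 9 niche signal genes did, so gene positions are quoted from the count table as they stand. For the strand setting of the counting, none is given in the sources used here.

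The tests used edgeR 4.0.16 (R 4.3.3, statmod 1.5.0) on the counts, with TMM scaling, a minimum count of 10 and total of 15 under its default filter, genotype as the one term of the quasi-likelihood model, and Benjamini-Hochberg adjustment over all 16107 tested genes. CPM use the total times the TMM factor, and ± is the SD of 3 libraries. Ratios were compared by the exact permutation test over 20 arrangements. Alternatives were DESeq2 1.42.0, limma 3.58.1 on log2(FPKM + 1) and log2(FPKM + 0.1), other factors and filters, protein-coding genes only, the replicate number as a block, Des as a covariate, and omission of libraries. Where libraries were left out, the filter was rerun, so list medians could then cover other genes than in the reported fit. Replicates differed beyond sampling noise (chi-square per degree of freedom 25.0 to 148), so each counts as 1 sample. The procedure was checked on simulated counts.

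The 9 genes and the 17 other lists were chosen with earlier results of these data known. Named from each list were the genes edgeR called, or else the 2 with the highest mean CPM, with values where the results turn on them, and for each niche signal gene the most alike genes among the nearest 3. Genes named because DESeq2 called them were chosen after their values were seen. The result for 1 listed gene is not reported here.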

Additional observations from a re-analysis of the deposited data

How the results depend on the processing

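Of the 9 niche signal genes, Sfrp1, Rspo1 and Bmp7 had the same sign under every alternative that gave a value, with log2 fold changes from -2.26 to -0.81, from -2.49 to -0.77 and from 0.67 to 1.28, as had Wnt2b (-1.46 to -0.25) and Wnt5a (0.14 to 0.56). The ends at -0.77 for Rspo1, 0.67 for Bmp7 and -0.25 for Wnt2b came from limma on log2(FPKM + 1). There the added 1 shrinks the differences of genes at low FPKM, so these ends are not on the scale of the edgeR values. Wnt2b and Rspo1 gave no value where 1 FPKM in 3 libraries was required. None of the 9 was called higher except Bmp7 with DESeq2 (1 gene). Those called lower were 2 with DESeq2 (Rspo1 and Sfrp1), 1 without the filter, 1 with the replicate block, and 0 to 1 with each library left out, each time Sfrp1, whose adjusted p was 0.0078 without the filter, 0.0351 with the block and 0.0194 without wild-type 3. Over all genes, 17 higher and 3 lower in the reported fit became 659 and 1193 with DESeq2, 384 and 815 without the filter, 225 and 448 with the replicate block, 41 and 11 with limma on log2(FPKM + 1), 40 and 11 on log2(FPKM + 0.1), 37 and 9 with a minimum of 1 FPKM, 7 and 1 without composition factors, and 1 and 0 without wild-type 1 and Muc2-/- 2 together. RLE factors gave 5 lower, Des as a covariate 0 of each, and omission of single libraries 0 to 272 higher and 0 to 954 lower, with none without wild-type 2 (2426 at an unadjusted p under 0.05) and most without wild-type 3. Whether same-numbered libraries form pairs could not be settled with 3 libraries per group. Their deviations correlated at 0.094, 0.281 and 0.061, and not every library correlated best with its own number. Muc2-/- 3 correlated at 0.064 with wild-type 1, against 0.061 with wild-type 3.

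Signs turned for Rspo3 with the Des covariate (0.10), for Grem1 with it (1.06), without wild-type 1 and Muc2-/- 2 together (0.079) and among single omissions (-1.04 to 0.16), for Bmp2 with the covariate (-0.46), without composition factors (-0.065; this scaling shifts the median gene by -0.19) and among single omissions (-0.16 to 0.55), and for Bmp4 without those libraries together (0.38) and among single omissions (-0.29 to 0.23). Log2 ratios to Des ran over single omissions from -0.41 to 1.29 for Wnt2b, -1.18 to 0.064 for Rspo1, -0.29 to 0.62 for Rspo3 and -0.75 to 0.18 for Sfrp1, and with collagen in place of Des they were -0.68 for Wnt2b and -0.88 for Rspo3. The cause of these turns was not tested. Rspo1 and Wnt2b, with as few as 4 and 6 counts in Muc2-/- 2, are limited by depth.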
